A study of Mus musculus with 14 samples.

Results

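The genes described here are Atf5 and the other members of the integrated stress response group: Atf4, Ddit3, Atf3, Ppp1r15a, Trib3, Sesn2, Asns and Chac1. All probe sets annotated to these single symbols were taken, which gave 15 probe sets for 9 genes, of 34945 probe sets with 1 symbol for 18193 genes. 14 of the 15 had a mean log2 intensity of at least 5 over the arrays and entered the fits. The 15th was a dim probe set of Atf4 (1439258_at). The genes were selected on values of these arrays, with differences between the treatments known, and which of these differences was used is not recorded. All of them are therefore given as a description, with no test. Only changes over time, and the other genes of the pathway, were tested.

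In the integrated stress response, kinases that sense starvation, unfolded protein, heme deficiency or double-stranded RNA phosphorylate the initiation factor eIF2α. General translation then drops, while mRNAs with certain upstream open reading frames, among them those of Atf4 and Atf5, are translated more. ATF4 and its partners in turn raise the mRNA of genes for amino acid synthesis, transport and charging onto tRNA, of Ddit3 and Atf3, and of feedback regulators such as Ppp1r15a and Trib3. In T lymphocytes the pathway is known for sensing amino acid supply, which limits proliferation. Arrays measure mRNA and do not see the translational step.

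Th1 rep cells, T helper 1 cells activated repeatedly in culture, came from OT-II mice of 6 to 10 weeks, whose T cells carry a transgenic receptor for an ovalbumin peptide. Naive CD4+ cells of spleen and lymph nodes were polarised with IL-12 and an antibody to IL-4 and stimulated with peptide on irradiated antigen-presenting cells, so traces of the latter could remain. After the fourth stimulation all cells were kept for a short time with 1 µM of an antagomir, a modified oligonucleotide that blocks a miRNA, and then reactivated with antibodies to CD3 and CD28 with IL-12, IL-2 and the antibody to IL-4 present. Antagomir-31 is directed at miR-31, and Antagomir-SCR is the scrambled control. RNA of each treatment was hybridised to Affymetrix Mouse 430_2 arrays at 36 h (2 arrays per treatment), 48 h (2 per treatment) and 72 h (3 per treatment), 14 arrays in all. The labels number the replicates but leave unsaid whether each had a culture of its own. The p-values therefore cover the spread among these arrays alone, which may be technical, and the small number of arrays limits the precision. In such bulk RNA, fewer cells of a type and less RNA per cell cannot be told apart. The median intensity of an array lay between 23.4 and 23.8 at 36 h, between 21.8 and 22.1 at 48 h and between 27.9 and 28.4 at 72 h. At the last time those of the Antagomir-31 arrays (28.3 to 28.4) lay above those of the Antagomir-SCR arrays (27.9 to 28.2). The upper quartiles lay the other way, at 129.1 to 130.0 against 131.4 to 133.2.

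The mature sequence of the blocked miRNA is shown because the seed, bases 2 to 8 in capitals, is what pairs with a target mRNA. It is encoded on the minus strand at chr4:88910614-88910635 (RefSeq, GRCm38.p6):
mmu-miR-31-5p: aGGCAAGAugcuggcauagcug
None of the genes is in the list of putative miR-31 targets that the study compiled (0 of 9).

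A sequence motif of the pathway was found in 4 of the 9 genes (44.4%), Atf5 not among them. These genes and those of the lists were grouped by their known place in the response, so the shares are a description and no independent support. The letters TGATGNAA, or TTNCATCA on the other strand, are the core of the element that dimers of ATF4 and C/EBP factors bind. They were searched on both strands of RefSeq promoter windows of 300 bases, 250 before and 50 after each annotated start (GRCm38.p6). The genes had 10 such windows, and 4 of them, those of Atf3, Chac1, Trib3 and Asns, held a match. Of all 32851 promoter windows, 1304 did (3.97%), or 4.51% of the 27025 genes. Neither of the 2 windows of Atf5 held these letters. The matches are printed with the motif in capitals, each 5′ to 3′ on the strand of its gene:
Atf3, chr1:191183426-191183453 (minus strand): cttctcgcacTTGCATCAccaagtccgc
Chac1, chr2:119351039-119351066 (plus strand): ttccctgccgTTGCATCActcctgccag
Trib3, chr2:152344029-152344056 (minus strand): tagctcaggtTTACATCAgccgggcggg
Asns, chr6:7693215-7693242 (minus strand): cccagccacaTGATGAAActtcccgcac
The motif began 110 bases before the annotated start in Atf3, 193 before it in Chac1 and 23 before it in Asns, and at base 15 after it in Trib3. In the other lists of the pathway only genes whose symbol had a promoter window were searched, for instance 9 of 14 synthetases and 6 of 10 transporters. Among the genes searched, the aminoacyl-tRNA synthetases held it most often (5 of 9 genes, 55.6%), followed by the amino acid transporters (2 of 6, 33.3%) and stress outputs such as Ddit4 and Nupr1 (4 of 15, 26.7%). None of 11 genes of the eIF2α kinases and their opponents held it, nor any of 9 genes of the mitochondrial and 10 of the other branches of the unfolded protein response. A match of letters is not a bound site.

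Atf5 encodes a transcription factor of the basic leucine zipper family and lies on chr7:44812256-44816658. It was higher with Antagomir-31 at each time. At 36 h the probe set (1425927_a_at) read 157 and 156 on the Antagomir-31 arrays and 127 and 126 on the Antagomir-SCR arrays, as linear intensities. At 48 h it read 161 and 159 against 135 and 138. At 72 h it read 129, 122 and 123 against 109, 109.6 and 106. The lowest Antagomir-31 array lay above the highest Antagomir-SCR array at all 3 times, an order that 53 of 17590 probe sets tested showed (0.301%). The log2 difference was 0.31 (standard error 0.047) at 36 h, 0.23 (0.047) at 48 h and 0.20 (0.039) at 72 h, or ratios of means of 1.24, 1.17 and 1.15. From the highest to the lowest, the group means were 160.4 ± 1.3 (Antagomir-31, 48 h), 157 ± 0.88 (Antagomir-31, 36 h), 137 ± 1.8 (Antagomir-SCR, 48 h), 126 ± 0.13 (Antagomir-SCR, 36 h), 125 ± 3.8 (Antagomir-31, 72 h) and 108 ± 1.9 (Antagomir-SCR, 72 h; SD, n = 2 or 3). Of neighbours in this order, only Antagomir-SCR at 36 h and Antagomir-31 at 72 h had overlapping arrays. Levels of different times are on the scale of the deposited values, which differs between times.

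**Figure D1:**
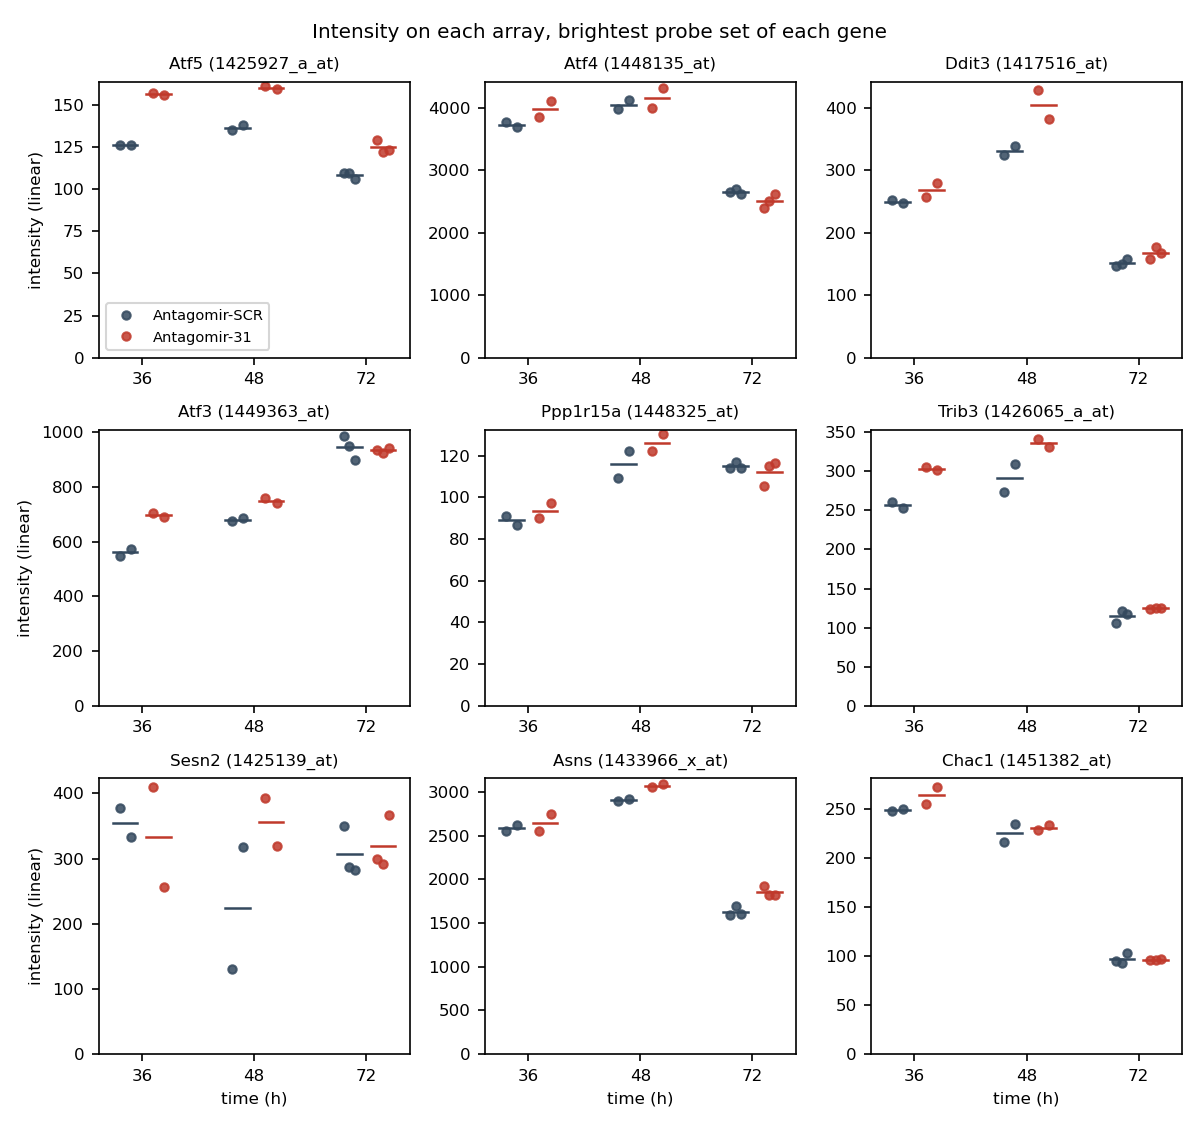
Linear intensity (vertical axes, from 0) of the brightest probe set of each of the 9 genes on the 14 arrays, by time in hours and treatment; points are arrays and lines group means. The Atf5 points of Antagomir-31 lie above those of Antagomir-SCR at all 3 times, and Trib3, Chac1, Asns, Ddit3 and Atf4 lie lower at 72 h than at 48 h.

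Among the other transcription factors, Atf4, the central factor of the response, had smaller differences than Atf5 on its brightest probe set. This one (1448135_at, chr15:80255184-80257545) read 3853 and 4111 (Antagomir-31) against 3762 and 3684 (Antagomir-SCR) at 36 h, 3993 and 4319 against 3975 and 4113 at 48 h, and 2389, 2499.8 and 2619.6 against 2651, 2703 and 2612 at 72 h. The treatments stood apart at 36 h and overlapped later, and the log2 differences were 0.10, 0.04 and -0.09 in order of time. The second probe set (1438992_x_at), whose suffix marks probes that may also bind other transcripts, overlapped at every time, with differences of 0.08, 0.09 and 0.20. Without Antagomir-31 replicate 1 at 48 h its difference at that time was -0.08, and without replicate 2 it was 0.26. The dim probe set read between 11.3 and 23.8 on all arrays.

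Ddit3 encodes CHOP, a factor linked to cell death under lasting stress of the endoplasmic reticulum. Its brighter probe set (1417516_at, chr10:127290793-127296291) read 257 and 279.8 against 251 and 247 at 36 h, 428 and 382 against 324 and 338 at 48 h, and 158, 177 and 168 against 146, 149.8 and 158 at 72 h. The Antagomir-31 arrays stood above at 36 h and 48 h and overlapped at 72 h. The log2 differences were 0.11 (standard error 0.073), 0.29 (0.073) and 0.15 (0.060). A dimmer probe set (1443897_at) differed by 0.44 (0.110) at 48 h, where its arrays did not overlap (0.32 and 0.56 without Antagomir-SCR replicate 1 and 2), and by 0.06 and 0.05 at 36 h and 72 h, where they did. At 36 h this difference was 0.25 without Antagomir-31 replicate 1 and -0.14 without replicate 2. At 48 h that of the brighter probe set was 0.21 without Antagomir-31 replicate 1 and 0.37 without replicate 2.

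Atf3 encodes a stress-induced factor that can repress as well as activate. Its probe set (1449363_at, chr1:191170296-191183333) read 703 and 691 against 546 and 575 at 36 h and 758 and 740.0 against 673 and 684 at 48 h, with no overlap. At 72 h it read 935, 925 and 942 against 987, 950.5 and 899, and the treatments overlapped. The log2 difference was 0.31 (standard error 0.054) at 36 h, beside 0.31 for Atf5, then 0.14 (0.054) at 48 h and -0.02 (0.044) at 72 h.

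The feedback regulators differed from each other. Trib3 encodes a pseudokinase that binds ATF4 and limits it (chr2:152337425-152344060). Its brighter probe set (1426065_a_at) read 305 and 301 against 261 and 254 at 36 h, 341 and 331 against 274 and 309.9 at 48 h, and 124, 126 and 126 against 106, 121 and 117 at 72 h. Like Atf5, its Antagomir-31 arrays stood above at all 3 times, with log2 differences of 0.24 (standard error 0.070), 0.21 (0.070) and 0.13 (0.057). At 48 h the difference was 0.12 without Antagomir-SCR replicate 1 and 0.30 without replicate 2. A second probe set (1456225_x_at) differed by 0.15, 0.11 and 0.09 and overlapped at 72 h only, and at 36 h its difference was 0.07 without Antagomir-SCR replicate 1 and 0.24 without replicate 2. Ppp1r15a encodes GADD34, which brings a phosphatase to eIF2α (1448325_at, chr7:45522917-45526268). It overlapped at every time, with readings between 86.9 and 97.1 at 36 h, between 109 and 130.2 at 48 h and between 106 and 117 at 72 h, and differences of 0.07, 0.12 (0.04 and 0.20 without Antagomir-SCR replicate 1 and 2 of 48 h) and -0.04.

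Asns, Sesn2 and Chac1 are outputs of the pathway. Asns encodes asparagine synthetase (chr6:7675165-7693209). Its brighter probe set (1433966_x_at) read 2552 and 2749.5 against 2553 and 2619 at 36 h, 3056 and 3086 against 2899 and 2915 at 48 h, and 1919, 1825 and 1817 against 1592, 1698 and 1599 at 72 h. The arrays overlapped at 36 h and stood apart at 48 h and 72 h, with log2 differences of 0.03 (standard error 0.055), 0.08 (0.055) and 0.19 (0.045). The other probe set (1451095_at), without the suffix that marks probes which may also bind other transcripts, stood apart at 36 h and 48 h. It overlapped at 72 h, where it differed by 0.06 (0.047).

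Sesn2 encodes a leucine sensor that restrains mTORC1 (chr4:132492804-132510456), and its probe sets went apart. At 48 h 1425139_at read 393 and 319 (Antagomir-31) against 130.3 and 318 (Antagomir-SCR), a log2 difference of 0.80 with a standard error of 0.322. This difference rests on a single array, since it was 0.16 without Antagomir-SCR replicate 1 and 1.44 without replicate 2, and it was 0.44 with the highest probe set of the gene on each array. At 36 h the same probe set differed by -0.13, by -0.47 without Antagomir-31 replicate 1 and by 0.21 without replicate 2. The other probe set (1451599_at) overlapped at all times, with differences of 0.03, 0.04 and -0.025 (0.05 at 72 h without Antagomir-31 replicate 3). Chac1 encodes an enzyme that degrades glutathione (1451382_at, chr2:119351242-119354326). It stood apart only at 36 h, where it read 255 and 273 against 248 and 250.2, and differed by 0.08, 0.04 (-0.03 and 0.10 without Antagomir-SCR replicate 1 and 2 of 48 h) and -0.01 in order of time.

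**Figure D2:**
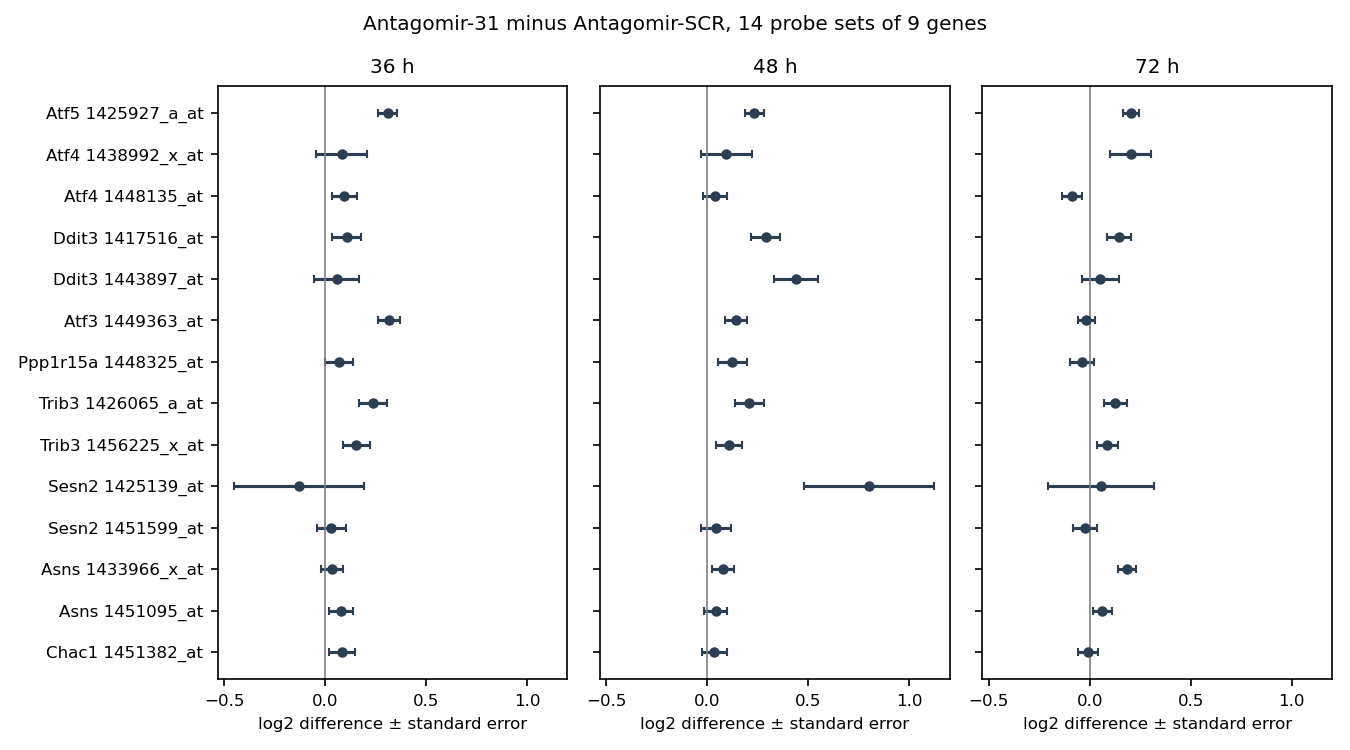
Log2 difference of Antagomir-31 minus Antagomir-SCR (horizontal axis, ± standard error of the fit) for the 14 probe sets that passed the filter, at 36 h, 48 h and 72 h. Atf5 lies at 0.31, 0.23 and 0.20, Atf3 goes from 0.31 to -0.02, and Sesn2 1425139_at at 48 h has a standard error of 0.322.

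Over the 14 probe sets, the difference was above 0 for 13 of them at 36 h, for 14 at 48 h and for 9 at 72 h. Their median was 0.08 at 36 h, 0.12 at 48 h and 0.06 at 72 h, beside medians of all probe sets tested of -0.0006, -0.0042 and -0.013. The Antagomir-31 arrays stood wholly above for 8 of 14 at 36 h, 9 of 14 at 48 h and 3 of 14 at 72 h, against 14.6%, 14.4% and 9.43% of all probe sets tested, and wholly below for none (14.3%, 18.6% and 14.9% of all). Nothing is read from these shares, since the differences were known when the group was made.

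**Figure D3:**
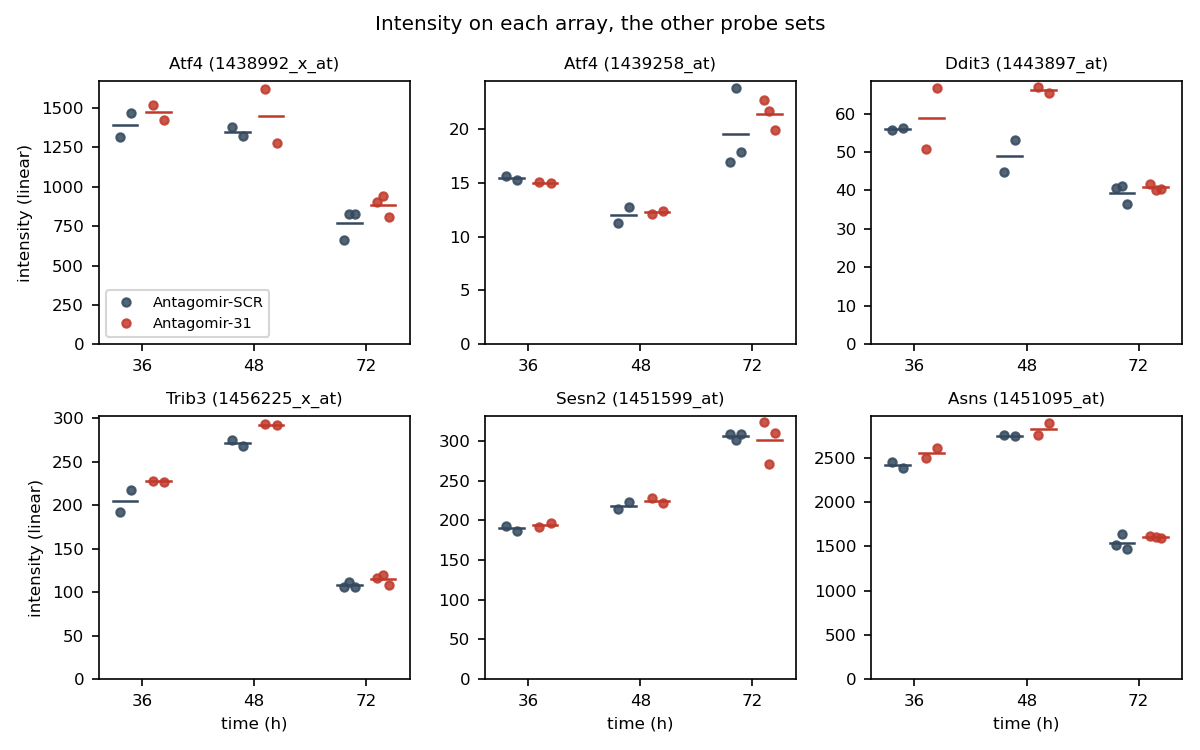
Linear intensity (vertical axes, from 0) of the 6 less bright probe sets of Atf4, Ddit3, Trib3, Sesn2 and Asns on the 14 arrays, by time in hours and treatment; points are arrays and lines group means. The dim Atf4 probe set 1439258_at is higher at 72 h than at 48 h, while 1438992_x_at of the same gene is lower.

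Changes over time were tested on the mean of both treatments after the 14 arrays were put on 1 distribution, because arrays of the same time have nearly equal distributions in the deposited values and those of different times do not. As deposited, the median probe set was 0.35 higher on the log2 scale at 72 h than at 48 h, and 0.03 higher after quantile normalization. Time, the normalization of the arrays of that time and the cultures harvested then cannot be told apart. Both treatments enter these tests. Whether values of time played a part in choosing the genes is not recorded, so these tests are no independent support for the choice.

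From 36 h to 48 h, 10 of the 14 probe sets rose and 1 fell, with 21.5% of all probe sets tested higher and 20.7% lower (42.2% called in limma). Ddit3 rose most, by 0.54 on the log2 scale (1417516_at, standard error 0.051, adjusted p = 1e-05), and by 0.50 on the deposited scale. As deposited, its median over both treatments went from 254 (lowest 247, highest 279.8) to 359.7 (324 to 428). Ppp1r15a rose by 0.43 (0.050, adjusted p = 4.5e-05), Trib3 by 0.41 on 1456225_x_at and 0.20 on 1426065_a_at (adjusted p = 4.2e-05 and 0.0077), Asns by 0.26 and 0.24 (0.00022 and 0.00074), Atf3 by 0.24 (0.00028) and Sesn2 1451599_at by 0.23 (0.0037). These genes thus stood above their 36 h level on the common distribution. Atf4 1448135_at rose by 0.16 (adjusted p = 0.013), a call that was lost without Antagomir-31 replicate 1 of 36 h (0.13, adjusted p = 0.051), without Antagomir-31 replicate 2 of 48 h (0.125, adjusted p = 0.056) and on the deposited scale (0.09, adjusted p = 0.10). Atf5 rose by 0.09 (0.035, adjusted p = 0.048), which no longer passed in 11 of 13 alternatives, among them leaving out any of the 8 arrays (0.089 to 0.099, adjusted p = 0.076 to 0.11). Chac1 fell by 0.13 (adjusted p = 0.031), lost without Antagomir-31 replicate 2, Antagomir-SCR replicate 1 or Antagomir-SCR replicate 2 of 36 h, or replicate 1 of either treatment of 48 h (-0.126 to -0.096, adjusted p = 0.065 to 0.12). Atf4 1438992_x_at (0.02), Ddit3 1443897_at (0.04) and Sesn2 1425139_at (-0.29) did not pass, the last with an adjusted p of 0.32 that became 0.0093 (-0.60) without Antagomir-SCR replicate 2 of 48 h.

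From 48 h to 72 h, 11 of the 14 probe sets fell and 2 rose, with 35.8% of all probe sets tested lower and 40.7% higher (76.5% called in limma; 7160 higher and 6297 lower, or 12636 and 2573 on the deposited scale). The median of the 14 was -0.94, beside 0.03 for all probe sets tested. Trib3 fell most, by 1.74 (standard error 0.047, adjusted p = 4.2e-12) and 1.70 (0.043, 2.5e-12) on 1426065_a_at and 1456225_x_at. As deposited, 1426065_a_at had a median over both treatments of 320.5 at 48 h (274 to 341) and 122 at 72 h (106 to 126). Chac1 fell by 1.60 (0.039, adjusted p = 1.5e-12), with a difference of -1.24 on the deposited scale. As deposited, its median went from 231 (216 to 235) to 95.7 (92.9 to 103), and all its 72 h arrays read lower than any array of 48 h. Ddit3 fell by 1.54 and 0.85 (adjusted p = 1.2e-11 and 2.5e-07), Asns by 1.02 and 1.07 (4.5e-11 and 7.9e-11), Atf4 by 0.87 and 1.00 (7.1e-10 and 2.2e-07) and Atf5 by 0.72 (0.032, 5.3e-10). All arrays of these 4 genes, in each of these probe sets, were lower at 72 h than at 48 h also as deposited. On the deposited scale the differences were smaller, -0.35 for Atf5, -0.67 for Atf4 1448135_at, -0.50 for Ddit3 1443897_at and -1.39 for Trib3 1426065_a_at, and all of these still passed. The dim Atf4 probe set went the other way, by 0.43 (adjusted p = 0.0003 in the fit without a filter).

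Ppp1r15a fell by 0.46 (0.046, adjusted p = 1e-06) on the common distribution, but by 0.09 on the deposited scale, where it did not pass (adjusted p = 0.083). The genes that did not fall were Atf3 and Sesn2. Atf3 rose by 0.15 (0.034, adjusted p = 0.0014) on the common distribution and by 0.40 (adjusted p = 2e-07) on the deposited scale, on which its median was 712 (673 to 758) at 48 h and 939 (899 to 987) at 72 h. Sesn2 1451599_at rose by 0.12 (0.047, adjusted p = 0.033), which was lost in 9 of 14 alternatives, among them leaving out any of the 10 arrays except Antagomir-31 replicate 3 and Antagomir-SCR replicate 3 of 72 h (0.094 to 0.130, adjusted p = 0.051 to 0.092). On the deposited scale it rose by 0.45 (adjusted p = 1.1e-06). Sesn2 1425139_at differed by -0.11 (adjusted p = 0.62), and fell by 0.43 without Antagomir-SCR replicate 1 of 48 h (adjusted p = 0.016). Between 48 h and 72 h the control ratio of 3′ to 5′ actin probe sets also moved, from a log2 of 0.37 to 0.41 to one of 0.21 to 0.27 (0.32 to 0.43 at 36 h). That of Gapdh moved the other way, from between -0.024 and -0.012 at 48 h to between -0.005 and 0.088 at 72 h. The part of these ratios in the changes over time was not tested.

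**Figure D4:**
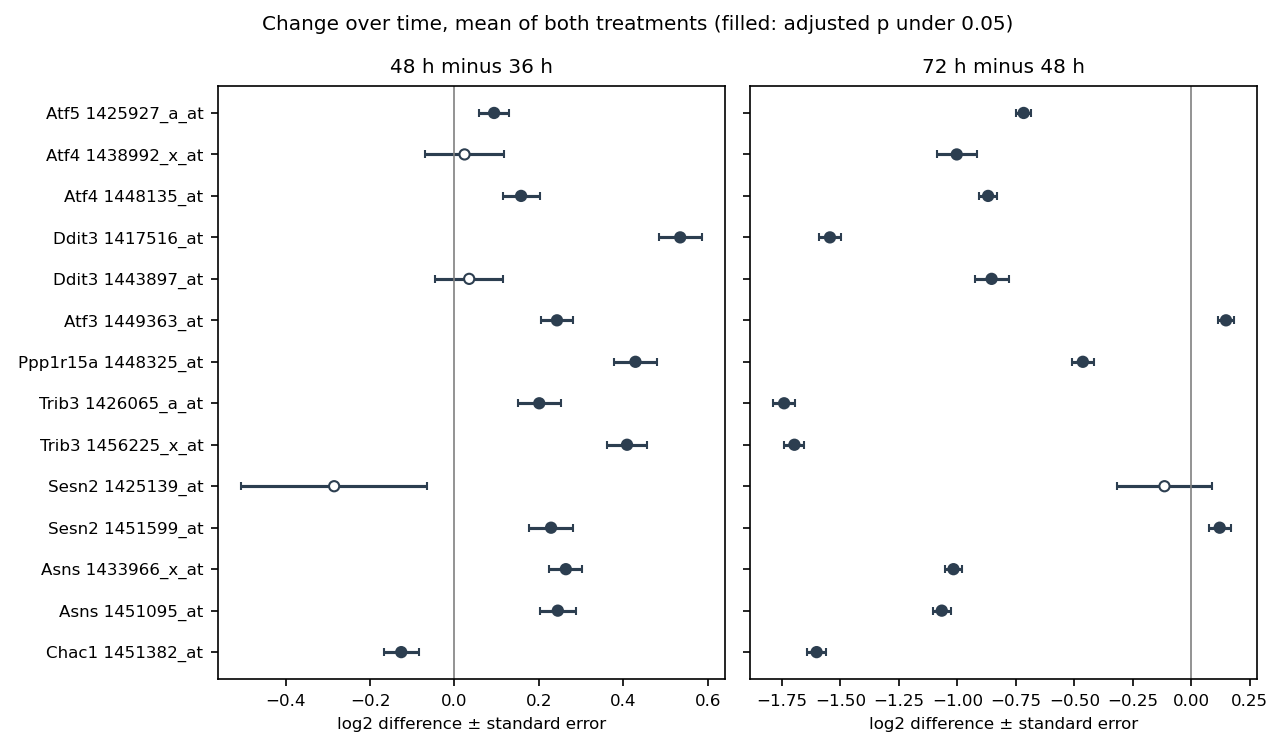
Change of the 14 probe sets over time as log2 difference ± standard error (horizontal axes, which have different ranges), mean of both treatments, from 36 h to 48 h and from 48 h to 72 h. Filled points passed an adjusted p of 0.05: 10 higher and 1 lower in the left panel, 2 higher and 11 lower in the right panel.

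The rest of the pathway was described with 8 lists of 102 genes, of which 98 were on the array and 93 passed the filter, each by its brightest probe set. None of them passed the limma test between the treatments at 36 h, where 0.0114% of all probe sets tested had an adjusted p under 0.05 (862 at an unadjusted p under 0.05), at 48 h (0%, 1065 unadjusted), over both (0%, 1138 unadjusted) or at 72 h. At 72 h 0.864% of all passed, 0.313% or 55 probe sets higher and 0.551% or 97 lower (76 and 74 after quantile normalization), a number that went down to 6 without Antagomir-SCR replicate 3 and up to 564 without Antagomir-31 replicate 4 of that time. In the test of whether the treatment difference changed from 36 h to 48 h, 0 of the 17590 probe sets passed in limma (703 at an unadjusted p under 0.05, and 8 passed without Antagomir-SCR replicate 2 of 48 h). Of the 10 amino acid transporters, 10 had a difference above 0 at 36 h, 9 at 48 h and 7 at 72 h, with medians of 0.13, 0.04 and 0.03. Of the 14 aminoacyl-tRNA synthetases 13, 8 and 6 did (medians 0.06, 0.005 and -0.004), and of the 11 genes of amino acid synthesis and one-carbon metabolism 10, 9 and 4 (medians 0.095, 0.06 and -0.02). The medians of these 3 lists were lower at 48 h and 72 h than at 36 h, a difference that was not tested, and all probe sets tested had medians of -0.0006, -0.0042 and -0.013. Of the 14 stress outputs 11, 10 and 5 were above 0 (medians 0.09, 0.095 and -0.05), and of the 9 bZIP partners 7, 6 and 3 (medians 0.10, 0.00 and -0.05). Of the 12 genes for eIF2α kinases, their opponents and subunits of eIF2 and eIF2B, 5, 6 and 5 were above 0 (medians -0.007, -0.007 and -0.028). The mitochondrial unfolded protein response had 10 of 12 genes above 0 at 36 h but 3 at 48 h and 3 at 72 h (medians 0.02, -0.03 and -0.04), and the other branches 2, 5 and 7 of 11 (medians -0.08, -0.01 and 0.01). Ddit4, which restrains mTORC1, had the smallest p of the 14 stress outputs. It differed by 0.25 (0.065) at 36 h, 0.27 (0.065) at 48 h, 0.26 over both (adjusted p = 0.13 in limma) and -0.18 (0.053, adjusted p = 0.11) at 72 h, none of which passed. Its means were 972 ± 38 against 820.0 ± 35 at 36 h and 1935 ± 116 against 2184 ± 60.1 at 72 h (SD, n = 2 and 3 per treatment). Slc3a2, the heavy chain of a leucine transporter, differed by 0.15 (adjusted p = 0.80) at 36 h and 0.12 (adjusted p = 0.80) at 48 h.

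Over time genes of these lists passed in both directions. On the deposited scale, given beside some counts, 2803 of all 17590 probe sets tested rose from 36 h to 48 h and 5315 fell. From 36 h to 48 h, 9 of 11 genes of amino acid synthesis rose and none fell, as did 4 of 10 transporters and 5 of 14 synthetases, again with none falling, beside 21.5% of all probe sets tested higher and 20.7% lower. Among them, Aldh1l2, a mitochondrial folate enzyme, rose by 0.66 (standard error 0.063, adjusted p = 1e-05), Psph, which makes serine, by 0.50 (0.035, 1.4e-06), Slc7a3, a transporter of cationic amino acids, by 0.50 (0.055, 3e-05) and Sars, the synthetase for serine, by 0.24 (0.046, 0.0013). The count for synthetases depended on single arrays and settings: 8 passed with a trend in the prior variance, 3 without Antagomir-SCR replicate 2 of 36 h, Antagomir-31 replicate 1 or 2 of 48 h, or Antagomir-SCR replicate 2 of 48 h, and 2 on the deposited scale. In the other branches of the unfolded protein response, which run through ATF6 and XBP1 and raise chaperones, 10 of 11 genes fell and none rose (20.7% of all fell). Creld2 fell by 0.56 (0.047, 4.8e-06), and Hsp90b1, Sdf2l1 and Dnajb9, all chaperones or their cofactors, fell by 0.46, 0.45 and 0.41. Of the bZIP partners 6 of 9 rose, with Cebpd at 0.53 (0.096, 0.00091) and Cebpb at 0.46 (0.059, 8.7e-05). Of the stress outputs 6 of 14 rose and 1 fell. Of the genes for eIF2α kinases, their opponents and subunits of eIF2 and eIF2B, 2 of 12 rose and 2 fell, or 1 and 5 on the deposited scale. These counts rest on the brightest probe set. Other tested probe sets had the opposite sign for Eif2s2 (0.14, 2 of 4 others), Eif2ak1 (0.29, 1 of 2) and Eif2ak2 (-0.30, 2 of 2).

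From 48 h to 72 h, 8 of 11 genes of amino acid synthesis fell and 1 rose, 8 of 10 transporters fell and none rose, and 11 of 14 synthetases fell and 1 rose, beside 35.8% of all probe sets tested lower and 40.7% higher. On the deposited scale 7, 6 and 8 of them fell and 3, 2 and 4 rose. Of all 17590 probe sets tested, 12636 rose and 2573 fell on that scale (2803 and 5315 from 36 h to 48 h). Cth, which makes cysteine, fell by 3.09 (standard error 0.048, adjusted p = 2.7e-14) on the common distribution. Its means as deposited were 3792 ± 127 (Antagomir-31) and 3956 ± 107 (Antagomir-SCR) before and 505 ± 42 and 593 ± 30.5 after (SD, n = 2 and then 3 per treatment). Aldh1l2 fell by 2.47 (0.058, 1.1e-12), Slc7a3 fell by 1.95 (0.051, 2.9e-12) and Slc7a11, the cystine transporter, fell by 1.91 (0.055, 7.3e-12). Nars, the synthetase for asparagine, fell by 1.05 (0.034, 2.4e-11), Cars, that for cysteine, by 0.92 (0.049, 2.4e-09) and Eprs, that for glutamate and proline, by 0.80 (0.034, 3.4e-10), while Vars, that for valine, rose by 0.74 (0.042, 5e-09). Of the 14 stress outputs 8 fell and 5 rose, among them Vldlr (-2.04), Nupr1 (-2.02) and Sesn1 (1.10), and of the 9 bZIP partners 4 fell, such as Cebpd (-1.56), and 3 rose, such as Batf3 (1.06). On the deposited scale 5 stress outputs fell and 6 rose, and 3 bZIP partners fell and 5 rose. Of the 12 genes for eIF2α kinases, their opponents and subunits of eIF2 and eIF2B, 6 rose and 5 fell. Eif2ak1, the kinase HRI, rose by 0.73 (0.060, 1.5e-07), Eif2b1, a subunit of the exchange factor eIF2B, by 0.46 (0.037, 1.5e-07) and Eif2ak3, the kinase PERK, by 0.37 (0.044, 5.9e-06), and Eif2ak4, the kinase GCN2, fell by 0.58 (0.045, 9.3e-08). On the deposited scale 9 of the 12 rose and 2 fell, near the share of all probe sets tested that rose on that scale. In the other branches of the unfolded protein response 8 of 11 fell and 2 rose (6 and 3 as deposited). The 12 genes of the mitochondrial unfolded protein response, a programme ATF5 is known to drive, split into 4 that rose, such as Htra2 (0.68) and Trap1 (0.67), and 5 that fell, such as Lonp1 (-0.41), with a median of -0.006. On the deposited scale 9 rose and 1 fell, again near the share of all probe sets tested that rose on that scale. From 36 h to 48 h 2 of them rose, Lonp1 (0.45) and Hspa9 (0.15), and Timm17a fell (-0.14), against 1 and 6 on the deposited scale and 2 and 3 without Antagomir-31 replicate 2 of 36 h.

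**Figure D5:**
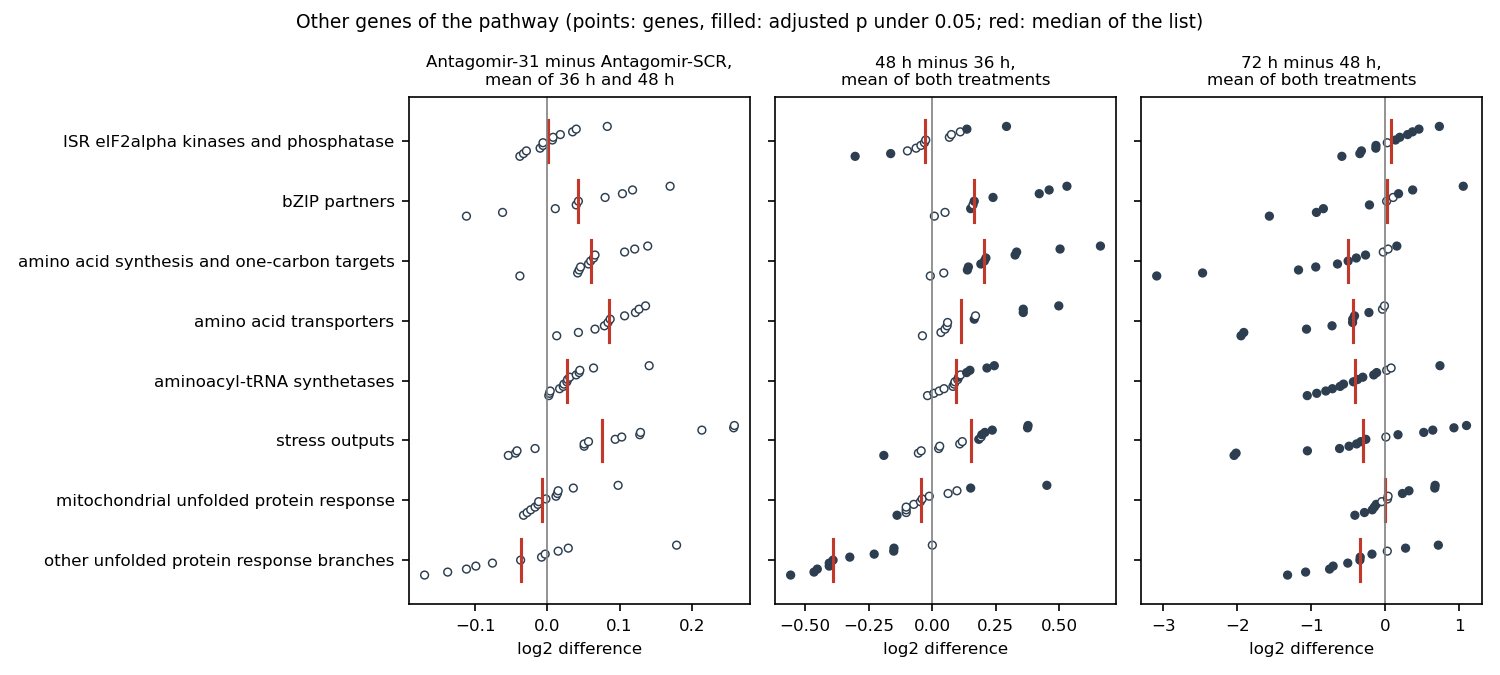
Log2 differences of the single genes of 8 pathway lists (points; horizontal axes with different ranges) between the treatments over 36 h and 48 h, from 36 h to 48 h and from 48 h to 72 h. Filled points passed an adjusted p of 0.05 and red lines are the medians of the lists: no point is filled between the treatments, and the medians of amino acid synthesis, transporters and synthetases lie above 0 in the middle panel and below 0 in the right panel.

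The genes whose pattern was most like that of Atf5 were looked up as a description over 10368 other genes. Log2 values were centred on the mean of each time, and Pearson's r was taken over the 14 arrays, which share the treatment labels and the normalization of their time. The 5 nearest were Vim (0.914), an intermediate filament protein, Parp14 (0.914), a mono-ADP-ribosyltransferase, Lrrc8d (0.889), a subunit of volume-regulated anion channels, Niban1 (0.873) and Tent5a (0.868). Each of them had a higher mean with Antagomir-31 at all 3 times, for instance 128 against 112, 134 against 120.2 and 342 against 314 for Parp14. The measure builds this in, since within a time Atf5 varied mainly between the treatments. The ranks of the group below likewise restate its treatment differences, which were known when it was made, and are no further support. Of the group, Trib3 was the 7th (0.857), Atf3 the 44th (0.761), Ddit3 the 95th (0.709) and Asns the 97th (0.707). Chac1 (0.335), Ppp1r15a (0.293), Sesn2 (0.289) and Atf4 (0.080) were further down, and of the group Atf4 was nearest to Ppp1r15a (0.811).

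The labelled identity of the cells was checked against marker genes. All 8 markers of T cells and Th1 cells passed the filter, and their summed intensity at 36 h ranged from 25939 to 26693 on the Antagomir-31 arrays and from 26045 to 26290.0 on the Antagomir-SCR arrays. It ranged from 24411 to 24624 against 24736 to 24931 for the 48 h arrays, and from 18664 to 19132 against 19171 to 19712 for the 72 h arrays. At 48 h and 72 h these sums were lower with Antagomir-31. Most of each sum was Ifng and Cd3d, with 48 h means of 15330 and 5373 (Antagomir-31) and 15650 and 5431 (Antagomir-SCR). Of the 8 markers, 3 were higher and 5 lower with Antagomir-31 at 48 h and again at 72 h, and none passed the limma test. From 48 h to 72 h, when the sums fell, 3 of the 8 markers passed as higher and 2 as lower, beside 40.7% and 35.8% of all probe sets tested. The part of the T cell and Th1 markers in the differences of the stress genes was not tested. None of the 4 B cell markers passed (summed intensity 56.5 to 97.7 on all arrays), and 3 of 5 macrophage markers (172 to 210.2), 2 of 5 dendritic cell markers (123 to 162) and 1 of 3 CD8 T and NK cell markers (55.0 to 83.6) did. The dendritic cell sum was higher with Antagomir-31 at 48 h (129.7 to 130.0 against 123 to 124). At 72 h, when Atf5, Trib3 and Asns stood apart, the macrophage sum was higher with Antagomir-31 (200.5 to 210.2 against 194 to 198). Of the macrophage markers that passed the filter, 2 were higher and 1 lower. The CD8 T and NK cell sum was lower with Antagomir-31 at 72 h (79.5 to 80.6 against 82.0 to 83.6). Its only marker that passed, Cd8a, had means of 36.1 (Antagomir-31) and 36.07 (Antagomir-SCR). The lower sum came from Cd8b1 (27.25 against 28.57) and Ncr1 (16.57 against 17.94), which did not pass the filter. The part of these markers in the differences was not tested.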

How the data were processed

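The authors scanned 14 arrays (GCOS) and applied RMA through affy; no version of either is named. Their deposited intensity values are on a linear scale and look normalized within a time. Of 45101 probe sets, 64 were controls, 932 had several symbols and 9160 had none; the 34945 with 1 symbol were used. Log2 intensities of the 17590 with a mean of at least 5 were fitted with limma 3.58.1 in R 4.3.3 (lmFit and eBayes, 6 groups, Benjamini-Hochberg over all of them), for time after quantile normalization. The script recovered known changes in simulated data, set between the treatments at 72 h only and larger than most treatment differences described here. Recovery of smaller differences, of those at 36 h and 48 h and of changes over time was not simulated. The 9 genes, the 13 lists and the tests were chosen with earlier results of these data known. All probe sets of the 9 genes were named; of each list, up to 4 genes that passed, by size, or the 2 of smallest p, and the 5 genes most like Atf5. Coordinates and sequences are from RefSeq (GRCm38.p6). No arrays of a group were identical (10 pairs, r 0.997 to 0.998). Alternatives were the filter, the gene level, a variance trend, the scaling, single arrays left out and a replicate block. Present calls (MAS5) were not used here.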

Additional observations from a re-analysis of the deposited data

How the results depend on the processing

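Atf5 differed between the treatments by 0.304 to 0.315 at 36 h over 11 alternatives, 0.216 to 0.246 at 48 h over 12 and 0.179 to 0.237 at 72 h over 13. Atf5 was chosen with these differences known, and all alternatives use the same arrays, so the narrow ranges are a description. Counts of probe sets that passed are another measure, not to be set against these ranges. At 36 h 2 passed, 0 without a filter, at the gene level, with a variance trend, with the replicate block and without any single array (0 to 0), and 1 with a mean log2 of at least 6. At 48 h 0 passed, and 0 to 39 without single arrays, the 39 without Antagomir-SCR replicate 2. For the mean of 36 h and 48 h 0 passed, 2 with a mean log2 of at least 6, 3 at the gene level, 11 with a variance trend, 2 with median centring and 0 to 1 without single arrays. At 72 h 152 passed, 13 without a filter, 422 with a mean log2 of at least 6, 589 with a variance trend and 6 to 564 without single arrays. The difference between 48 h and 36 h gave 0, 1 after quantile normalization and 0 to 8 without single arrays. Over time 7422 and 13457 passed, 15032 and 23315 without a filter and 4519 and 8047 at the gene level, where other numbers of features were tested. Otherwise the cause of these moves was not tested. Where leaving out an array left 1 in its group, that array was assumed to vary like the other groups.

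With the replicate number as a block, 0, 0, 0 and 39 passed at 36 h, 48 h, over both and at 72 h. Same-numbered arrays had deviations that correlated at 0.075 at 36 h, -0.181 at 48 h and -0.018 to 0.149 at 72 h, and 4 of 4, 0 of 4 and 2 of 6 arrays correlated best with their own number. With 2 arrays in a group the deviations mirror each other, so 36 h and 48 h each give a single correlation and a count of all or none. Whether the numbers pair the samples therefore cannot be decided. A crossed pairing at 48 h, added after the data were seen, also gave 0 calls. The time changes were not run with the block, because each time has its own arrays.

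Of the time changes of single probe sets, 338 of 380 values kept direction and side of the threshold, 30 lost the call, 2 gained it and 10, none of which was called, changed sign. Atf4 1438992_x_at from 36 h to 48 h was -0.038 as deposited and -0.002, -0.011 and -0.060 without Antagomir-31 replicate 2 or Antagomir-SCR replicate 1 of 36 h or Antagomir-31 replicate 1 of 48 h (single arrays left out: -0.060 to 0.109). Ddit3 1443897_at was -0.009 as deposited, -0.071 without Antagomir-31 replicate 1 of 36 h and -0.022 without Antagomir-SCR replicate 2 of 48 h (-0.071 to 0.141). Sesn2 1425139_at was 0.028 without Antagomir-SCR replicate 1 of 48 h (-0.598 to 0.028), and from 48 h to 72 h 0.212 as deposited and 0.198 without Antagomir-SCR replicate 2 of 48 h (-0.428 to 0.198).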
